A study of Mus musculus with 8 samples.

Results

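The genes described here are 34 mouse genes of glucose uptake, glycolysis and the handling of pyruvate and lactate. They were chosen by gene symbol for their place in the pathway, from 54146 genes with RNA-seq values, and all 34 were present. The rule used no measured values, but the choice was made with earlier results of these data known. The values came from EL4 cells, a C57BL/6 mouse T cell lymphoma line used here as a model of the T cell lineage factors T-bet and GATA3. Retroviral vectors gave 4 lines of these cells. One line (GFP + Plum) carried only the fluorescent proteins GFP and Plum, and another (T-bet + Plum) carried FLAG-tagged T-bet and Plum. The remaining lines carried GFP and HA-tagged GATA3 (GFP + GATA3) or FLAG-tagged T-bet and HA-tagged GATA3 (T-bet + GATA3). All lines grew in medium with 25 mM D-glucose and 1 mM sodium pyruvate, and all were stimulated for 4 h with the phorbol ester PMA at 50 ng/ml and ionomycin at 1 μM. No unstimulated cells were analysed here. Each line was measured in 2 libraries, numbered 1 and 2 in the labels. The study defines biological replicates as harvests of the same line on different days, so the p-values below describe the spread between harvests of 1 line per genotype and not between independently made lines. Because the samples were bulk cultures, fewer cells of a kind and less RNA per cell cannot be told apart.

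Glycolysis splits glucose into pyruvate and yields ATP without oxygen, and activated T cells and many tumour lines run it at a high rate and export the lactate. Glucose enters through facilitative transporters, is trapped by hexokinase and is committed to the pathway by phosphofructokinase, whose activator fructose 2,6-bisphosphate is made and degraded by the PFKFB enzymes. Pyruvate is either reduced to lactate or oxidised in mitochondria, a branch point that the pyruvate dehydrogenase kinases push towards lactate. The transcription factor HIF1A, stabilised when oxygen is low, activates many of these genes.

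The libraries held between 8038565 and 16003519 estimated counts, and the library numbered 1 held fewer than the library numbered 2 in every line. Levels are given in TPM, a share of all transcripts corrected for transcript length, and tests used the counts. The labels held at the RNA level. Tbx21, which encodes T-bet, was at 52.4 to 70.2 TPM in the 4 libraries of the T-bet lines and at 0.755 to 1.72 TPM in the other libraries. Gata3 was at 138 to 299.99 TPM in the GATA3 lines and at 11.4 to 27.6 TPM in the others, which have endogenous Gata3. Of 9 T cell markers, 8 reached 1 TPM in at least 1 library. The exception was Cd247. No erythroid marker reached 1 TPM, and all 5 rounded to 0 counts in every library, as did the B cell marker Cd79b. Of 5 myeloid markers Cd68 alone reached 1 TPM, and of 5 fibroblast markers Pdgfra alone did. The fibroblast sum moved with the lines, from 0.576 to 1.95 TPM in the T-bet lines and from 3.56 to 7.12 TPM in the others. That of 8 genes induced by stimulation, such as Il2 and Egr1, also did, from 941 to 1353 TPM in the T-bet lines and from 442 to 652 TPM in the others. The part of these movements in the results below was not tested.

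The glycolytic genes held abundant transcripts in all 4 lines. Summed over the 34 genes they took 14252 and 10446 TPM in GFP + Plum, 12113 and 11640 in T-bet + Plum, 16148 and 12618 in GFP + GATA3, and 11292 and 11625 in T-bet + GATA3. These sums are between 1.04% and 1.61% of all transcripts on the TPM scale. The order of the line means was GFP + GATA3 (14383 ± 2496, SD, n = 2), GFP + Plum (12349 ± 2691), T-bet + Plum (11876 ± 334) and T-bet + GATA3 (11459 ± 235). GFP + GATA3 and GFP + Plum overlapped, as did GFP + Plum and T-bet + Plum, while the libraries of T-bet + Plum lay just above those of T-bet + GATA3. This order holds for TPM over all transcripts. Over protein-coding transcripts the last 2 lines changed places, at 21859 and 22116, and in CPM T-bet + GATA3 (17123) lay above GFP + Plum (17006) and T-bet + Plum (16925). Pkm, Gapdh, Eno1, Aldoa and Slc2a3 together gave 69.3% of the mean sum. At the other end, Hk3, Pgam2, Eno2, Ldhb and Fbp1 had at most 3 counts in any library, and Pgam2 had none. These 5 genes did not pass edgeR's filter on low counts, so that 29 of 34 members were among the 14791 genes tested. At the depth of the shallowest library a floor of 3 counts corresponds to 0.373 CPM, the count scaled to library size, and it covers counting error only.

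**Figure D1:**
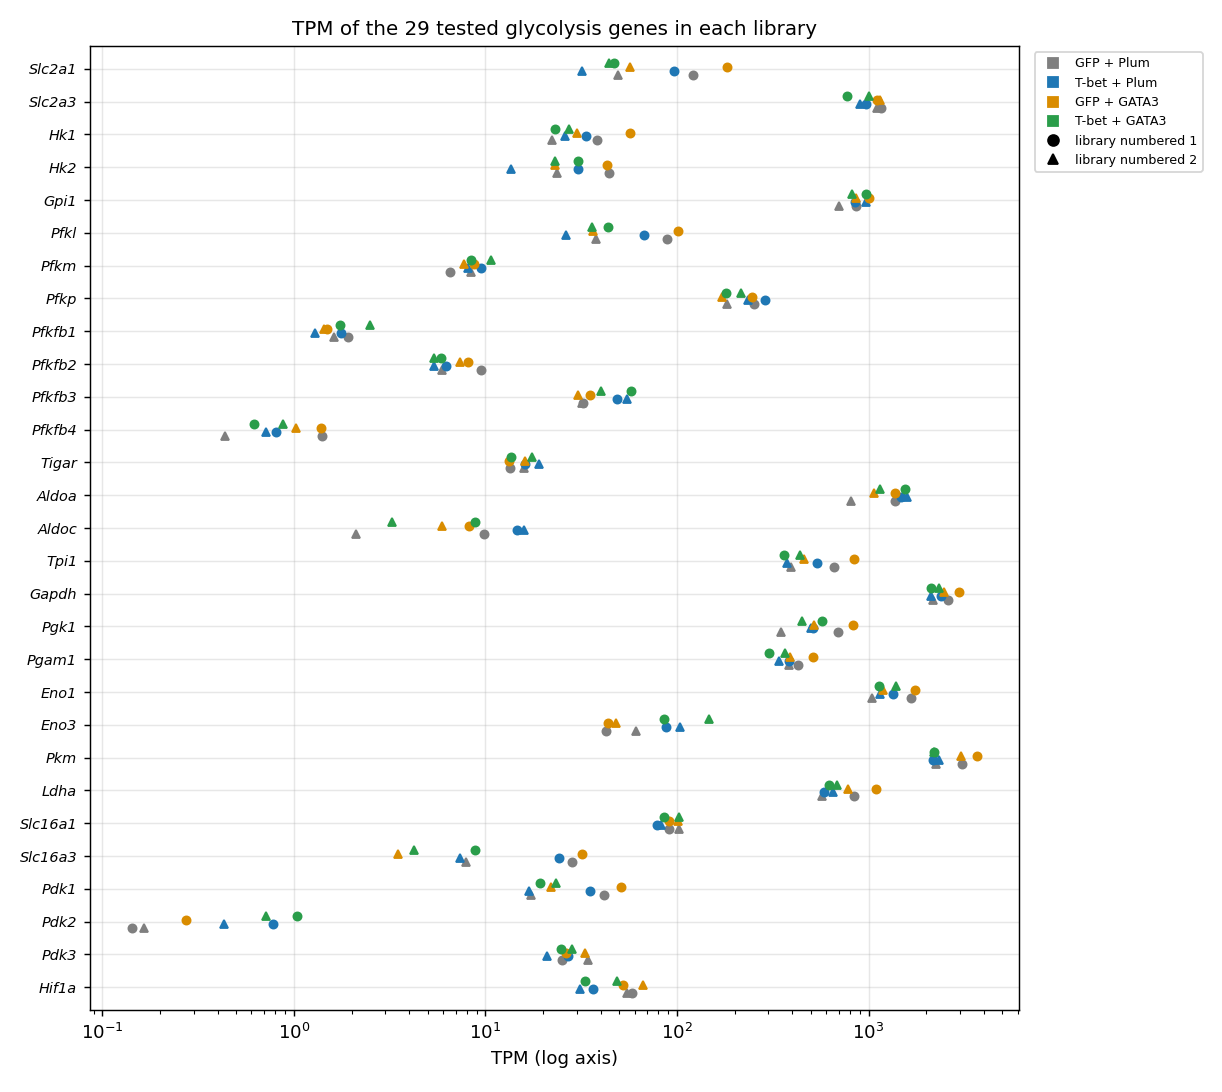
TPM (log axis) of the 29 tested members in each of the 8 libraries, coloured by line, with circles for libraries numbered 1 and triangles for libraries numbered 2; 1 library in which Pdk2 is at 0 cannot be shown. Pkm spans 2168 to 3689 TPM and Pdk2 reaches 1.04 TPM, and for Slc2a1, Pfkl, Slc16a3, Pdk1 and Hk2 the circles spread to the right of the triangles of the same colour in most lines.

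Between the lines with and without T-bet, 4 of these genes were called, at about the rate of all genes. When the T-bet effect was averaged over cells without and with GATA3, 4 of 29 members (13.8%) passed an FDR of at most 0.05 with edgeR's quasi-likelihood test, against 15.2% of all genes tested. Without GFP + GATA3 replicate 2 the share of all genes fell to 7.82%, and 3 of 29 members passed, so the members' share lay on either side of the background. The share of all genes was also at most 10.1% without T-bet + Plum replicate 1, T-bet + Plum replicate 2, GFP + GATA3 replicate 1 or T-bet + GATA3 replicate 1, each with 3 members. Eno3, Pdk2 and Pfkfb3 rose (8.55% of all genes rose) and Hif1a fell (6.61% of all genes fell). With the size threshold of the study added, a log2 fold change above 1.5 in size, Pdk2 alone remained, against 4.5% of all genes. Pdk2 entered the test only through its T-bet libraries, so its call is not independent of the filter on low counts. DESeq2 also called 4 members, against 15.7% of all genes. The median log2 fold change was -0.084 over the members and 0.017 over all genes tested, with 10 members above 0 and 19 below. The median size of the change was 0.25 for the members and 0.24 for all genes. With libraries left out in turn the median signed change of the members ran from -0.18 to 0.079, and its sign turned. Of the 8 stimulation genes, 7 were called higher in the same test, and their part in these calls was not tested.

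In the comparisons of 2 lines the numbers were smaller. No member passed in T-bet + Plum versus GFP + Plum by edgeR (6.2% of all genes did). There 4 of 29 members (13.8%) had an unadjusted p under 0.05, against 19.4% of all genes. DESeq2 called 3 members, Eno3, Pfkfb3 and Hif1a, against 8.12% of all genes. In T-bet + GATA3 versus GFP + GATA3, Eno3 passed among the 29 members (5.77% of all genes did), also with the size threshold (2.85% of all genes). DESeq2 added Pfkfb3 and called 7.92% of all genes. T-bet + GATA3 versus GFP + Plum gave 0 members by edgeR against 4.87% of all genes. It had 4 members (13.8%) at an unadjusted p under 0.05, against 17.8% of all genes, and 2 called by DESeq2, against 6.85%. The test of any difference among the 4 lines called Eno3 (7.42% of all genes were called), and DESeq2 called 3 members (11.3% of all genes). That call of Eno3 was lost, with an FDR of 0.0717 to 0.111, without T-bet + Plum replicate 1, T-bet + Plum replicate 2, GFP + GATA3 replicate 1, GFP + GATA3 replicate 2 or T-bet + GATA3 replicate 2. The comparisons that involve GFP + Plum share its libraries.

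Between the lines with and without GATA3, no member was called by any of these tests. In GFP + GATA3 versus GFP + Plum, 0 of 29 passed in edgeR (0.0203% of all genes did). None had an unadjusted p under 0.05 (3.7% of all genes did), and DESeq2 called none (0.385% of all genes). T-bet + GATA3 versus T-bet + Plum likewise gave 0 members against 0.0338% of all genes. It had 0 at an unadjusted p under 0.05 (3.78% of all genes) and 0 in DESeq2 (0.257%). The GATA3 effect averaged over cells without and with T-bet gave 0 against 0.0608%, with 0 at an unadjusted p under 0.05 (4.96% of all genes) and 0 in DESeq2 (0.602%). Its median log2 fold change was 0.049 over the members. In 0 of 29 members the TPM of the libraries with and without GATA3 did not overlap, against 1.33% of all genes. No member and no gene passed the interaction of T-bet and GATA3 (0% of all genes) in edgeR, which asks whether the T-bet effect differs with GATA3. There 0 members had an unadjusted p under 0.05 (2.58% of all genes), and DESeq2 called 15 genes and no member. The GATA3 lines compared in this way rest on 2 libraries each, and a p that misses the threshold does not show that levels were equal.

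**Figure D2:**
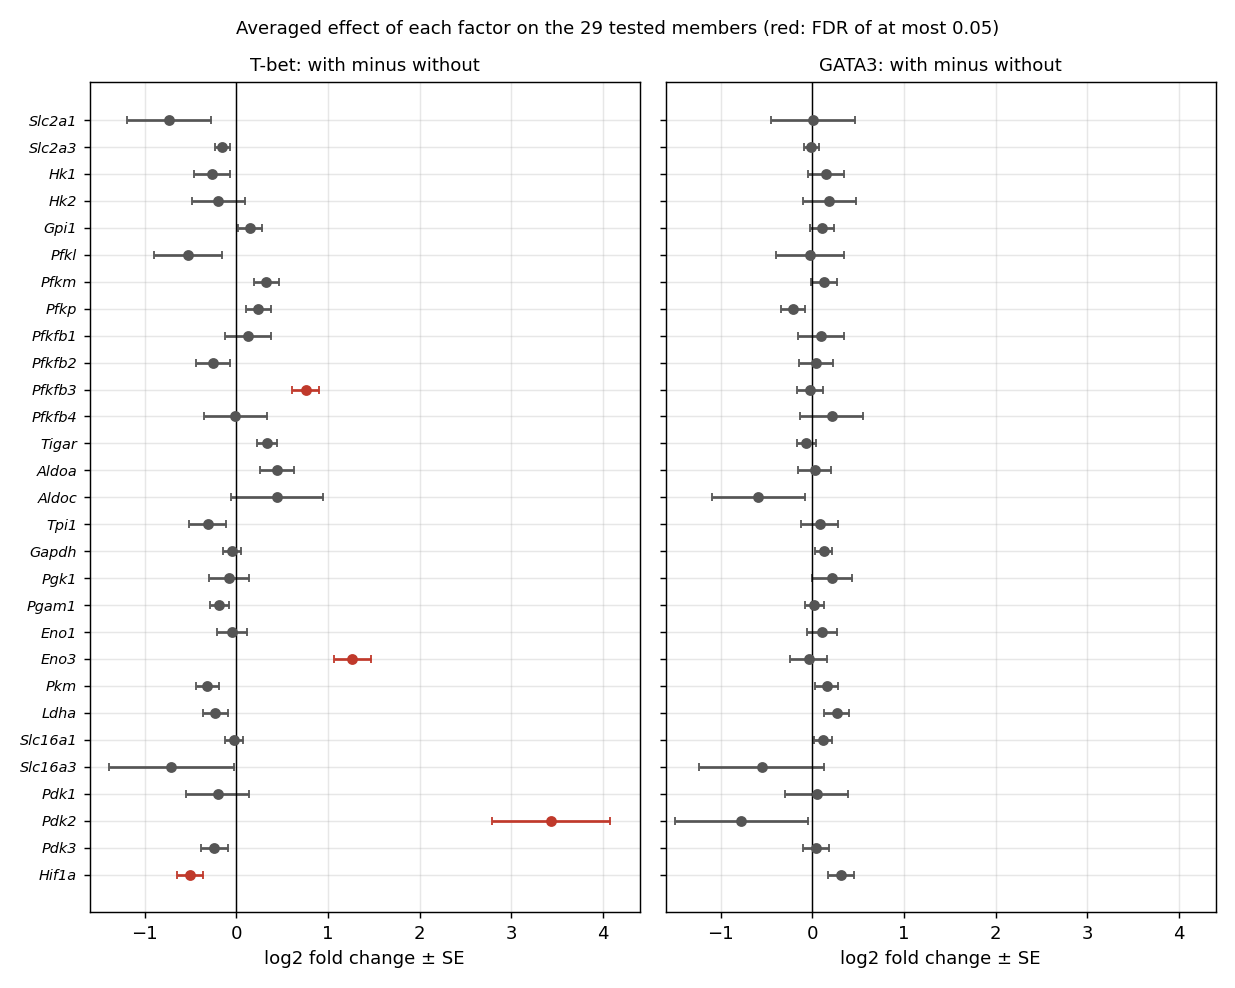
Log2 fold change with its standard error for the averaged T-bet effect (left) and the averaged GATA3 effect (right) of the 29 tested members, in order of their place in the pathway, with red for an FDR of at most 0.05. On the left Eno3, Pdk2 and Pfkfb3 lie above 0 and Hif1a below 0 in red, and no point on the right is red.

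Among the glucose transporters Slc2a3 was the dominant transcript. Slc2a3, which encodes the high-affinity transporter GLUT3, was at 1162 and 1113 TPM in GFP + Plum, 965 and 898 in T-bet + Plum, 1104 and 1153 in GFP + GATA3, and 769.9 and 1001 in T-bet + GATA3. It gave 85.9% to 96.6% of the summed TPM of the transporter pair, and Slc2a1 (GLUT1) gave the remainder. Slc2a3 was lower in all 4 T-bet libraries than in all 4 others, and its averaged T-bet effect was -0.15 ± 0.082 (SE) on the log2 scale of the fit, with an FDR of 0.263, and did not pass. Slc2a1 was at 121 and 49.1 TPM in GFP + Plum, 96.6 and 31.9 in T-bet + Plum, 181 and 57.0 in GFP + GATA3, and 47.2 and 44.0 in T-bet + GATA3. The library numbered 1 was the higher in every line, and the groups with and without T-bet overlapped. Within the same number each T-bet library lay below its counterpart without T-bet. The differences in log2 CPM averaged -0.85 between the libraries numbered 1 and -0.52 between those numbered 2. Its averaged T-bet effect of -0.74 ± 0.46 had an FDR of 0.337.

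Hexokinase, the first enzyme of the pathway, came from Hk1 and Hk2. Hk1 ranged over 22.2 to 57.1 TPM and took 43.2% to 65.6% of the hexokinase TPM, and Hk2, the inducible form, ranged over 13.7 to 44.0 TPM. Hk3 was at 0.126 TPM or less and had at most 2 counts in any library. Gpi1, the isomerase that turns glucose 6-phosphate into fructose 6-phosphate, ranged over 702 to 1005 TPM. None of the tested genes of this step passed in any comparison, and the averaged T-bet effects were -0.27 for Hk1, -0.20 for Hk2 and 0.15 for Gpi1 on the log2 scale.

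Phosphofructokinase, the committing step, was mainly the platelet type. Pfkp was at 251 and 183 TPM in GFP + Plum, 286 and 235 in T-bet + Plum, 247 and 172 in GFP + GATA3, and 181 and 215 in T-bet + GATA3. It made up 69.2% to 87.2% of the phosphofructokinase TPM, the liver type Pfkl 9.83% to 28.3%, and the muscle type Pfkm 1.88% to 4.07%. For Pfkp the lines overlapped, with an averaged T-bet effect of 0.24 ± 0.13 and an FDR of 0.282. Pfkm was at 6.51 and 8.39 TPM in GFP + Plum, 9.43 and 8.10 in T-bet + Plum, 8.66 and 7.74 in GFP + GATA3, and 8.44 and 10.7 in T-bet + GATA3. Its averaged T-bet effect was 0.33 ± 0.14 with an FDR of 0.169, and the groups with and without T-bet overlapped. A gene that shares at least 100 stretches of 31 bases with Pfkm held 4.0% as many counts as Pfkm itself. Pfkl ranged over 26.5 to 101 TPM.

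Among the PFKFB enzymes, which set fructose 2,6-bisphosphate, Pfkfb3 carried most of the transcript and rose with T-bet. Pfkfb3 (chromosome 2 of GRCm38, 11471433 to 11554077, minus strand) encodes the form with the highest ratio of kinase to phosphatase activity. It was at 32.4 and 31.9 TPM in GFP + Plum, 48.8 and 54.8 in T-bet + Plum, 35.2 and 30.5 in GFP + GATA3, and 57.3 and 40.1 in T-bet + GATA3. All 4 T-bet libraries (40.1 TPM and above) lay above all 4 others (35.2 TPM and below), and the ratio of the group means was 1.55. Among all genes tested, 20.9% had TPM that did not overlap between the libraries with and without T-bet in either direction, and among the members 5 of 29 did. The averaged T-bet effect on the log2 scale was 0.76 ± 0.15 (SE) with an FDR of 0.0113 in edgeR, and the FDR ranged over 5.53e-08 to 0.0494 across the alternatives. The difference was 0.86 between the libraries numbered 1 and 0.61 between those numbered 2. It was 0.76 without GATA3 (FDR 0.0760) and 0.75 with GATA3 (FDR 0.0823). The value with GATA3 was 0.33 (FDR 0.354) without T-bet + GATA3 replicate 1 and 1.02 (FDR 0.0107) without T-bet + GATA3 replicate 2. The one without GATA3 stayed near its size but passed without either T-bet + GATA3 library (FDR 0.0123 for each). Pfkfb3 took 71.7% to 88.1% of the PFKFB TPM, and Pfkfb2 8.65% to 21.0%, with lower shares of Pfkfb1 and Pfkfb4. The gene overlaps the antisense gene Gm10851, and whether the counting used strand is not given in the sources used here.

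Pfkfb2 ranged over 5.37 to 9.49 TPM, Pfkfb1 over 1.29 to 2.49 TPM and Pfkfb4 over 0.435 to 1.40 TPM. Tigar, a bisphosphatase that lowers fructose 2,6-bisphosphate and so opposes PFKFB3, was at 13.4 and 15.9 TPM in GFP + Plum, 16.03 and 19.1 in T-bet + Plum, 13.3 and 16.1 in GFP + GATA3, and 13.6 and 17.4 in T-bet + GATA3. The groups with and without T-bet overlapped in TPM, and the library numbered 2 was the higher in every line. Within the same number the differences in log2 CPM averaged 0.36 between the libraries numbered 1 and 0.31 between those numbered 2. The averaged T-bet effect of 0.33 ± 0.11 had an FDR of 0.0730 and did not pass, though it passed with protein-coding genes alone. Tigar overlaps the antisense gene Platr31.

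The split of fructose 1,6-bisphosphate was carried almost wholly by Aldoa, the muscle-type aldolase that most tissues use. Aldoa was at 1383 and 805 TPM in GFP + Plum, 1469 and 1581 in T-bet + Plum, 1367 and 1070.1 in GFP + GATA3, and 1546 and 1155 in T-bet + GATA3. The libraries numbered 1 of GFP + Plum and GFP + GATA3 lay above the lowest T-bet library, and the averaged T-bet effect of 0.44 ± 0.18 had an FDR of 0.152. Aldoc, the brain-type aldolase, was at most 0.99% of the aldolase TPM, at 2.10 to 15.8 TPM. Tpi1, which interconverts the triose phosphates, ranged over 362 to 839 TPM, with an averaged T-bet effect of -0.31 and an FDR of 0.360.

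In lower glycolysis Eno3 was the gene called, and no other gene of these steps passed. Gapdh ranged over 2124 to 2963 TPM, Pgk1 over 351 to 829 TPM, Pgam1 over 301 to 513 TPM and Eno1 over 1048 to 1743 TPM. These genes encode the dehydrogenase, the ATP-forming kinase, the mutase and the main enolase, and their averaged T-bet effects lay between -0.19 and -0.048 on the log2 scale. Gapdh and Pgam1 have near copies, and kallisto divides shared fragments between them. The 128 genes that share at least 100 stretches of 31 bases with Gapdh held 22.3% as many counts as Gapdh, and Pgam1-ps2 held 20.9% as many as Pgam1, so that their levels are uncertain.

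Eno3 encodes the beta-enolase known from muscle, and was the member with the lowest FDR. The gene lies on chromosome 11 of GRCm38, from 70657202 to 70662513 on the plus strand, with no antisense gene annotated over it. No other gene shared at least 100 stretches of 31 bases with Eno3. The RefSeq promoter window (GRCm38.p6, 250 bases before to 50 after the start, chr11:70656926-70657225, plus strand) is printed because Eno3 was called, with capitals for the GATA motif AGATAA.
Eno3 promoter: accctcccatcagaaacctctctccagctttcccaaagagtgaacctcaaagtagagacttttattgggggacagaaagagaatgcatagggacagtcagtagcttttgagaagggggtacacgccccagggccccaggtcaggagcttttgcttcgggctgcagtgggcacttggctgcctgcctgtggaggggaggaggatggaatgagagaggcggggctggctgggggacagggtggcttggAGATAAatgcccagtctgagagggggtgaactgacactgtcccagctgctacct
Eno3 was at 42.5 and 60.9 TPM in GFP + Plum, 88.1 and 104 in T-bet + Plum, 43.8 and 47.8 in GFP + GATA3, and 85.1 and 146 in T-bet + GATA3. The 4 T-bet libraries lay at 85.1 TPM or above and the 4 others at 60.9 TPM or below, a ratio of the group means of 2.17. The averaged T-bet effect was 1.27 ± 0.20 (SE) on the log2 scale, with an FDR of 0.00493 in edgeR and of 9.93e-21 to 0.0252 over the alternatives. The difference was 1.40 between the libraries numbered 1 and 1.17 between those numbered 2. In T-bet + GATA3 versus GFP + GATA3 the log2 fold change was 1.504 ± 0.29, with an FDR of 0.0214. That call was lost, with an FDR between 0.0507 and 0.138, without T-bet + Plum replicate 2, GFP + GATA3 replicate 1, GFP + GATA3 replicate 2 or T-bet + GATA3 replicate 2, each left out in turn. In T-bet + Plum versus GFP + Plum it was 1.03 ± 0.29 with an FDR of 0.0830. That value was 0.63 (FDR 0.148) without GFP + Plum replicate 1 and 1.57 (FDR 0.0115) without GFP + Plum replicate 2. The interaction was 0.48 ± 0.40 with an FDR of 1.000. Eno1 remained the main enolase throughout, and the share of Eno3 in the enolase TPM was 2.45% to 5.49% without T-bet and 6.17% to 9.51% with it. Eno2 had at most 3 counts in any library.

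**Figure D3:**
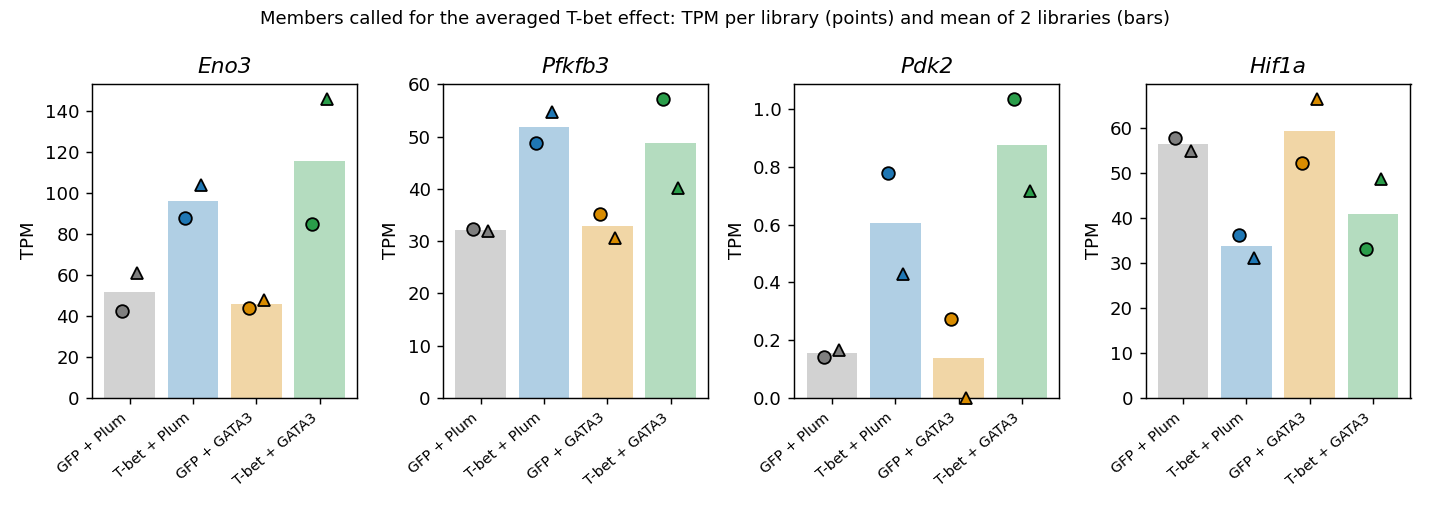
TPM of Eno3, Pfkfb3, Pdk2 and Hif1a by line, with bars for the mean of 2 libraries, circles for the library numbered 1 and triangles for the library numbered 2. For Eno3, Pfkfb3 and Pdk2 the 4 T-bet libraries lie above the 4 others, and for Hif1a they lie below; Pdk2 stays at or under 1.04 TPM.

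Pkm, the pyruvate kinase gene and the most abundant member, was at 3061 and 2247 TPM in GFP + Plum, 2168 and 2344 in T-bet + Plum, 3689 and 3052 in GFP + GATA3, and 2208 and 2196 in T-bet + GATA3. GFP + GATA3 and GFP + Plum overlapped, and the lower GFP + Plum library lay among the T-bet libraries. The averaged T-bet effect was -0.32 ± 0.13 with an FDR of 0.141, so Pkm did not pass. Pkm makes either of 2 enzyme forms from mutually exclusive exons, the M1 exon for the adult muscle form PKM1 and the M2 exon for PKM2, the form of proliferating and tumour cells. The exons are 167 bases each and lie at chr9:59675029-59675195 and chr9:59675568-59675734 of GRCm38 on the plus strand. They are printed because the form of pyruvate kinase is read from them, with capitals for bases that differ between them, and 103 bases (61.7%) are the same.
Pkm M1 exon: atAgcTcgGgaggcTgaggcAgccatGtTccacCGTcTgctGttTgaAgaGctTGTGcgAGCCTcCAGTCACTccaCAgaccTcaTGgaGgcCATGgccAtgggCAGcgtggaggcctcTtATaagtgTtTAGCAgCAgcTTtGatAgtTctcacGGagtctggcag
Pkm M2 exon: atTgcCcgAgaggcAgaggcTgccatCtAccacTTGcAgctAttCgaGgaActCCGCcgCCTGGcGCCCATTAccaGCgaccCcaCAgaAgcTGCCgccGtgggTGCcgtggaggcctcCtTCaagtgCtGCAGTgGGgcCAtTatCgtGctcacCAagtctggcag
Of the 2 transcripts compared, the one with the M2 exon held most of their summed TPM in all 8 libraries. It held 41.3% to 44.9% of the Pkm TPM. The M1 transcript took 15.4% to 21.5% of the summed TPM of this pair, with 3103 to 9513 estimated counts, and the M2 transcript 17406 to 43213 counts. The M1 share was 20.9% and 17.8% in GFP + Plum, 17.6% and 18.8% in T-bet + Plum, 16.7% and 19.1% in GFP + GATA3, and 21.5% and 15.4% in T-bet + GATA3. The lines overlapped in this share. The pair gave 49.4% to 54.4% of the Pkm TPM. The remainder was assigned to other Pkm transcripts, whose exons were not examined, so the M1 share holds for this pair only. In the other members with several coding transcripts, a transcript share that differed by over 20 points between some lines without overlap was found in Pfkfb1, Aldoc and Ldhb. Ldhb had 2 counts in all, and Pfkfb1 215.

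Pyruvate leaves as lactate through lactate dehydrogenase and the monocarboxylate transporters. Ldha was at 839 and 573 TPM in GFP + Plum, 589 and 654 in T-bet + Plum, 1094 and 778 in GFP + GATA3, and 621 and 684 in T-bet + GATA3. GFP + GATA3 had the highest mean but overlapped GFP + Plum, which overlapped the T-bet lines, and the averaged T-bet effect of -0.23 ± 0.14 had an FDR of 0.321. Ldha gave 99.97% or more of the lactate dehydrogenase TPM, and Ldhb had at most 1 count in a library. Slc16a1, which encodes the transporter MCT1, ranged over 78.9 to 103 TPM. Slc16a3, which encodes MCT4, the exporter of strongly glycolytic cells, was at 28.2 and 7.92 TPM in GFP + Plum, 24.3 and 7.41 in T-bet + Plum, 31.7 and 3.50 in GFP + GATA3, and 8.82 and 4.26 in T-bet + GATA3. The library numbered 1 was again the higher in every line, the groups with and without T-bet overlapped, and the averaged T-bet effect of -0.71 ± 0.68 had an FDR of 0.544.

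**Figure D4:**
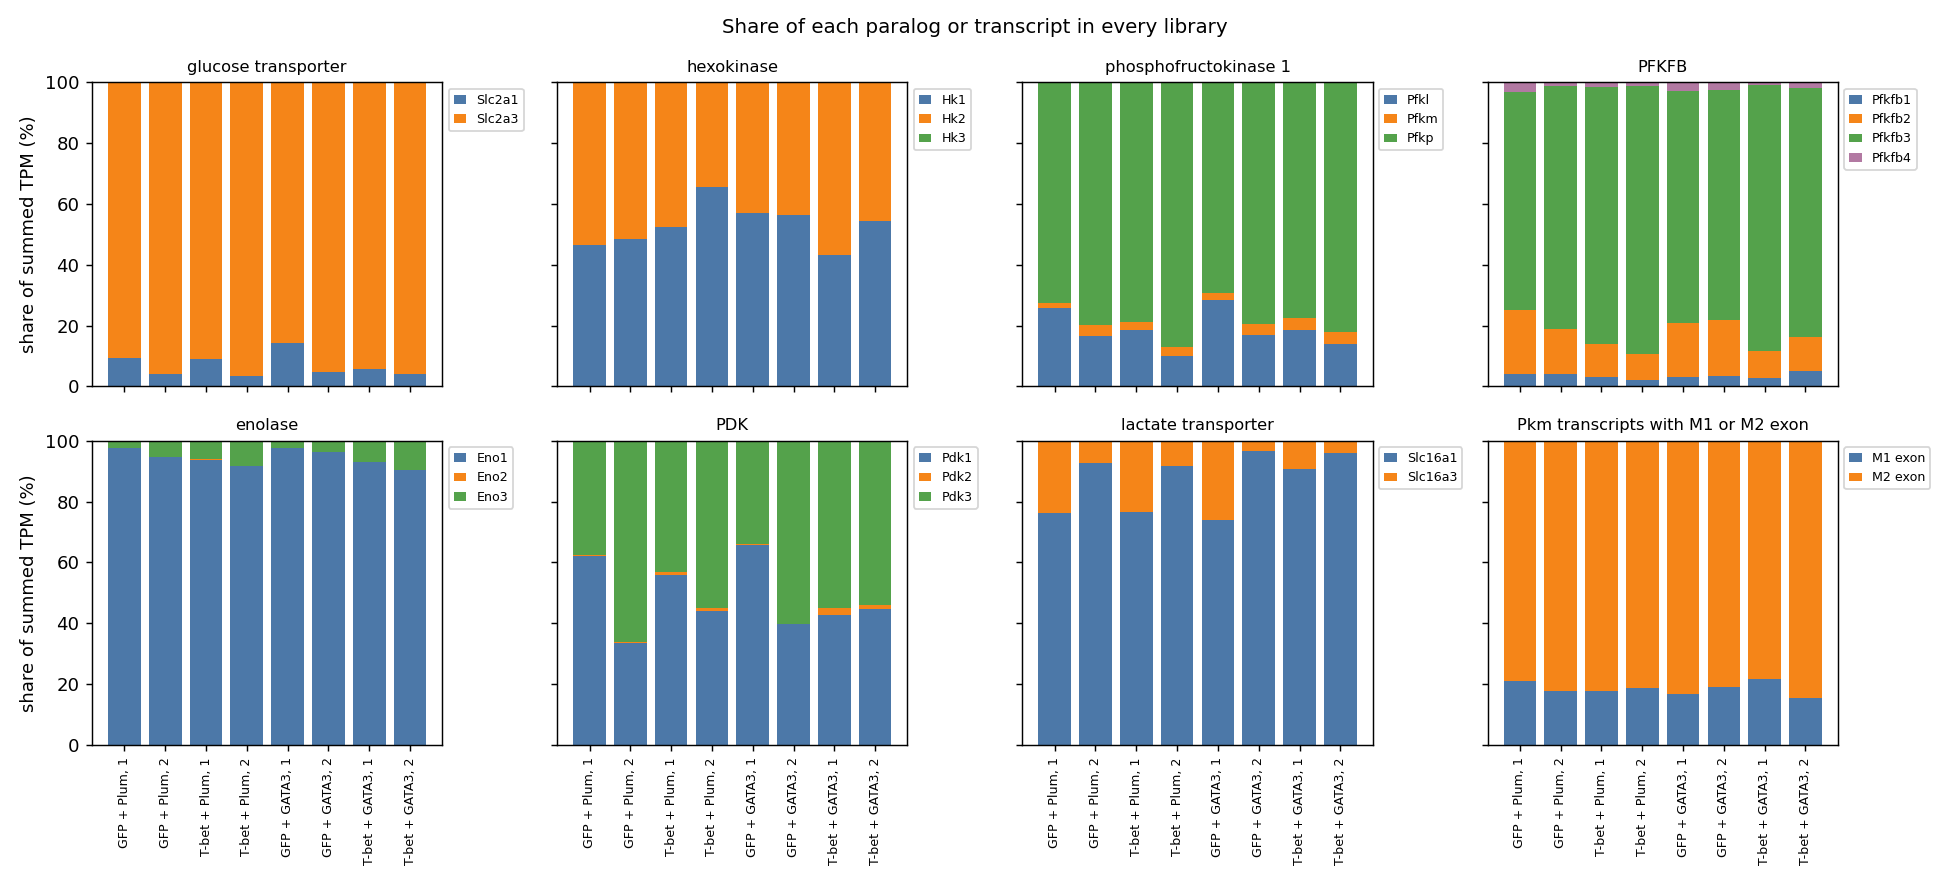
Share of the summed TPM (%) held by each paralog in the 8 libraries, and by the Pkm transcripts with the M1 or M2 exon; numbers 1 and 2 after the line name are the library numbers. Slc2a3, Pfkp, Pfkfb3, Eno1 and Slc16a1 hold most of their families in every library, and the M2 transcript holds most of the compared Pkm pair. Hk1 and Hk2 divide their family, and the share of Eno3 is larger in the T-bet lines.

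The pyruvate dehydrogenase kinases, which switch off the entry of pyruvate into the citric acid cycle, were Pdk1 and Pdk3, with very little Pdk2. Pdk1, a known HIF1A target, ranged over 16.9 to 51.1 TPM and Pdk3 over 21.1 to 34.4 TPM, and neither passed in any comparison. Pdk2 (chromosome 11 of GRCm38, 95026258 to 95041354, minus strand) was at 0.143 and 0.165 TPM in GFP + Plum, 0.779 and 0.430 in T-bet + Plum, 0.274 and 0 in GFP + GATA3, and 1.04 and 0.716 in T-bet + GATA3. The 4 T-bet libraries lay above the 4 others. These values rest on 35 counts in the 4 T-bet libraries and 4 counts in the 4 others. The ratio, scaled by the effective library sizes, was 10.8 with an exact 95% interval of 3.88 to 42.0, which covers counting error only. The averaged T-bet effect in the fit was 3.43 ± 0.64 (SE) on the log2 scale with an FDR of 0.00984, and the fitted size depends on the handling of counts near 0. Pdk2 passed the filter on low counts only through T-bet libraries, which held 0.466 to 0.889 CPM. The others held 0.124 CPM or less, so this call is not independent of the filter. Counted without GATA3 the ratio was 9.39 (2.79 to 49.4), from 20 against 3 counts, and with GATA3 it was 16.2 (2.49 to 682), from 15 against 1. Even in the T-bet lines Pdk2 was at most 2.29% of the PDK TPM. It overlaps the antisense gene Gm11513.

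Hif1a (chromosome 12 of GRCm38, 73901375 to 73947530, plus strand), whose protein activates many of the genes above, was lower with T-bet. It was at 57.9 and 55.0 TPM in GFP + Plum, 36.4 and 31.1 in T-bet + Plum, 52.3 and 66.7 in GFP + GATA3, and 33.2 and 48.8 in T-bet + GATA3. All 4 T-bet libraries (48.8 TPM and below) lay under the 4 others (52.3 TPM and above). The averaged T-bet effect was -0.50 ± 0.14 (SE) on the log2 scale with an FDR of 0.0480, next to the threshold. The call was lost in 6 of 8 fits that left out a library, namely GFP + Plum replicate 2, T-bet + Plum replicate 1, T-bet + Plum replicate 2, GFP + GATA3 replicate 1, GFP + GATA3 replicate 2 or T-bet + GATA3 replicate 1, with an FDR between 0.0676 and 0.176. The change was -0.62 without GATA3 (FDR 0.129) and -0.39 with it (FDR 0.338). The value with GATA3 was -0.16 without T-bet + GATA3 replicate 1, -0.23 without GFP + GATA3 replicate 2 and -0.73 without T-bet + GATA3 replicate 2, so no order of these values is read. Hif1a overlaps the antisense gene Gm15283, and a near copy held 2.72% as many counts. Fbp1, which runs the phosphofructokinase step in reverse in gluconeogenesis, had 1 count in 1 library.

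Several members differed between the 2 libraries of a line in the same direction in all 4 lines, a comparison added after the values per library had been seen. On the log2 CPM scale the library numbered 1 exceeded the library numbered 2 for Slc16a3 by 1.67, 1.38, 3.08 and 1.32, with the control line first, then the T-bet line, the GATA3 line and the line with both. The same differences were 1.15, 1.58, 1.62 and 0.53 for Slc2a1, 0.97, 1.16, 1.42 and 0.36 for Pfkl and 1.03, 0.94, 1.26 and 0.38 for Pdk1. For Hk2 they were 0.71, 0.97, 0.97 and 0.40. Of the 29 members, 9 were higher in the library numbered 1 in all 4 lines (Eno1, Hk2, Pdk1, Pfkfb2, Pfkl, Pfkp, Pgk1, Slc16a3 and Slc2a1), or 31.03%, against 12.7% of all genes tested. Eno3, Slc16a1 and Tigar (10.3%) were lower in all 4, against 12.0% of all genes. These counts are in CPM. In TPM, Eno1, Pfkp and Pdk1 were instead lower in the library numbered 1 of T-bet + GATA3. They were at 1141 against 1390, 181 against 215 and 19.3 against 23.4. The other genes named in these counts kept their direction in TPM. In CPM Slc2a3, the main transporter, differed by 0.069 or less in size in every line, and Hif1a itself by -0.25, 0.17, -0.30 and -0.55. In TPM Slc2a3 was at 769.9 and 1001 in the libraries numbered 1 and 2 of T-bet + GATA3. The member medians were 0.36, 0.17, 0.38 and 0.052 in the same order of lines, with medians over all genes between -0.0075 and 0.017. A list of 18 targets of the hypoxia response outside glycolysis had medians of 0.82, 0.52, 0.82 and 0.59, and 14 of its 18 genes were higher in the library numbered 1 in all 4 lines. So were 4 of 14 tested genes of glycogen and gluconeogenesis and 3 of 15 tested other enzymes and transporters of glycolysis and pyruvate use. Of 22 tested regulators of glycolytic gene expression and glucose uptake 3 were, and in the pentose phosphate list no gene was. With the library number tested and the line as a covariate, edgeR called 0 of 29 members (0.0135% of all genes). Of the members 14 (48.3%) had an unadjusted p under 0.05, against 16.3% of all genes. DESeq2 called 6 members among 351 genes. The number is shared by the labels and is not stated to mark a common harvest, and the libraries numbered 1 were also the shallower ones. The part of depth, or of the culture at harvest, in this pattern was not tested.

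**Figure D5:**
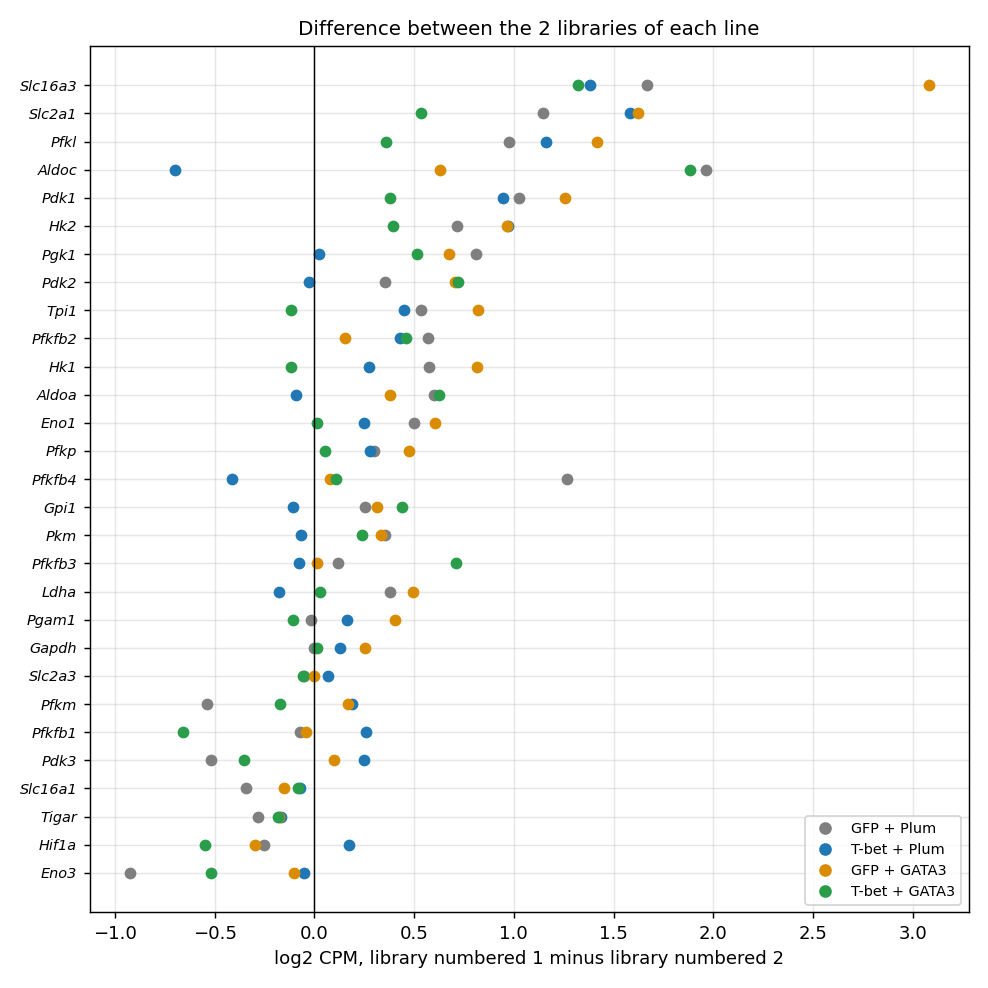
Difference in log2 CPM between the library numbered 1 and the library numbered 2 of each line (points, coloured by line) for the 29 tested members, sorted by their mean. Slc16a3, Slc2a1, Pfkl, Pdk1 and Hk2 lie to the right of 0 in all 4 lines, and Eno3, Tigar and Slc16a1 lie to the left in all 4.

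The promoter windows of the members carried ACGTG, a form of the core of the hypoxia response element, more often than promoters in general. Other forms of the core were not searched. ACGTG, read on both strands, was in 23 of 52 windows of the 33 members found in RefSeq (44.2%), against 19.6% of 32851 windows of the same length. Slc2a3 was not matched. The E-box CACGTG, which contains ACGTG, was in 7 windows (13.5%) against 7.2% of all. The T-box core GGTGTGA was in 0 of 52 windows against 4.0% of all, and AGATAA was in 9 (17.3%) against 11.2%. The 2 members with the largest mean difference between the numbered libraries are printed with the ACGTG core, or its reverse complement, in capitals, Slc2a1 at chr4:119108495-119108794 and Slc16a3 at chr11:120948817-120949116, both on the plus strand of GRCm38.p6.
Slc2a1 promoter: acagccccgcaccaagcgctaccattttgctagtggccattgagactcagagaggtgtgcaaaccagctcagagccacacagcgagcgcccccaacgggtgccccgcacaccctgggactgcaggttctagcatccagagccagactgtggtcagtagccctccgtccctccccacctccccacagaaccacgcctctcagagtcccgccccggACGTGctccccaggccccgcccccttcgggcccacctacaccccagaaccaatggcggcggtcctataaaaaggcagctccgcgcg
Slc16a3 promoter: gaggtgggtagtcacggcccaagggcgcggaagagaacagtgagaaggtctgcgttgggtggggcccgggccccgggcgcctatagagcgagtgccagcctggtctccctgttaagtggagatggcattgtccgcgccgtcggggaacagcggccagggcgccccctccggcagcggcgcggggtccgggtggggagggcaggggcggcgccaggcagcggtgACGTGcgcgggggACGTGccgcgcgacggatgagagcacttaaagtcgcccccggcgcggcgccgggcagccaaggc
The Slc2a1 window holds ACGTG once and the Slc16a3 window holds it in 2 places. Windows of Hk2 held ACGTG or its reverse complement as well, and those of Pfkl and Pdk1 held neither, with other forms of the core not searched. A match is a description of the letters and not a bound site.

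Genes of 5 neighbouring lists were read against the same 15.2% of all genes that passed for the averaged T-bet effect. Of 31 other enzymes and transporters of glycolysis and pyruvate use, 15 were tested and 2 passed for the averaged T-bet effect. Slc2a6, a lysosomal hexose transporter, rose by 1.25 on the log2 scale (FDR 0.0146) and Adpgk, an ADP-dependent glucokinase, fell by 0.34 (FDR 0.0342). In the pentose phosphate pathway 1 of 10 passed, with Rpia, the ribose-5-phosphate isomerase, at 0.48 (FDR 0.0096). Of 14 tested genes of glycogen and gluconeogenesis 3 passed, namely Pgm3, Pgm1 at -0.71 (FDR 0.00576), and G6pc3, which is named after its value was seen. Of 18 hypoxia targets 2 passed, Bhlhe40 at 1.26 and Car12 at 0.91 (FDR 6.44e-05 and 0.00142), and the list median was -0.11. Of 22 tested regulators of glycolytic gene expression and glucose uptake 2 passed and both rose, Myc at 0.79 (FDR 0.00216) and Ppargc1b at 0.73 (FDR 0.00601). Myc is also among the 8 stimulation genes, of which 7 were called higher in the same test. Txnip, an inhibitor of glucose uptake, was at -1.12 (FDR 0.0569) and did not pass. None of these lists had a gene that passed for the averaged GATA3 effect in edgeR.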

How the data were processed

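RNA-seq of 8 libraries from 4 EL4 lines was analysed. Per the labels and the methods, the authors trimmed reads with Trim Galore, checked them with FastQC and quantified transcripts with kallisto against mouse transcripts of mm10. The deposited files hold estimated counts, TPM and effective lengths in bases for 136535 transcripts, and kallisto's version is not given in the sources used here. The estimated counts and the TPM, both deposited by the authors, were summed per gene over 54146 gene identifiers, and counts were rounded.

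Counts were fitted with edgeR 4.0.16 (R 4.3.3), using TMM scaling, filterByExpr (minimum count 10) and the quasi-likelihood test over all 8 libraries with 1 term per line. The p-values were adjusted by Benjamini and Hochberg over the 14791 genes tested, and an FDR of at most 0.05 was the threshold. The 9 comparisons were any difference, 5 pairs of lines, the averaged T-bet and GATA3 effects and their interaction. DESeq2 1.42.0, other scaling and filters, length offsets, a replicate block and leaving out each library were alternatives. The fits were tested on simulated data. Libraries of a line were compared by chi-square over genes and were not copies of each other. Intervals and floors cover counting error only.

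Full values are given for members called in any comparison and, up to 10, for those with the smallest p in the test of any difference. Slc2a1, Slc2a3 and Slc16a3 were added after their values were seen. Up to 3 genes of each neighbouring list were named by the same p. The genes and lists were chosen with earlier results of these data known. Sequences came from RefSeq promoters (GRCm38.p6) and the GRCm38 genome. A marker gene of the label checks is not reported here.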

Additional observations from a re-analysis of the deposited data

How the results depend on the processing

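With 2 libraries per line, few members were called and the counts of calls moved with the settings. Of 272 values of named genes under alternatives, 238 kept their direction and side of the threshold, 10 fell below it, 24 passed it and 0 changed sign. The cause of the moves was not tested.

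DESeq2 called 3 members for any difference, 3 for T-bet + Plum versus GFP + Plum, 2 for T-bet + GATA3 versus GFP + GATA3 and 2 for T-bet + GATA3 versus GFP + Plum. In the same order it called 11.3%, 8.12%, 7.92% and 6.85% of all genes. Without a filter on low counts 33 members and 30930 genes were tested. The same 4 counts were then 9, 6, 8 and 5, against 9.09%, 6.35%, 6.26% and 5.49% of all genes. There were 2 where T-bet + GATA3 was set against T-bet + Plum (0.737% of all genes) and 10 for the averaged T-bet effect (10.3%). The averaged GATA3 effect gave 1 (1.21%) and the interaction 1 (0.469%). Protein-coding genes alone gave 2 for any difference (10.6% of these genes) and 1 for T-bet + GATA3 versus GFP + Plum (7.26%). They gave 5 for the averaged T-bet effect, adding Tigar, against 21.6% of genes. The comparison with GFP + Plum also gave 1 with length offsets and 1 with at least 10 counts in every library, a filter that removed Pdk2. The libraries of T-bet + Plum and GFP + Plum alone gave 1 member (4.89% of all genes), and the size threshold left 1 for the averaged T-bet effect (4.5%). The replicate block gave 3 for any difference, 3 for T-bet + Plum versus GFP + Plum, 1 for T-bet + GATA3 versus GFP + Plum and 7 for the averaged T-bet effect, adding Aldoa (FDR 0.0396), Slc2a1 (-0.67, FDR 0.0308) and Tigar (FDR 0.0184) by edgeR. Same-numbered libraries were not shown to be paired, since the correlation of their deviations over all genes ran from -0.046 to 0.30 over 6 pairs of lines, above 0.1 in 4 of them. Over the members alone it ran from 0.084 to 0.79. Over all genes the averaged T-bet effect had 2242 calls among 14791 genes, 3179 among 30930 without a filter and 3063 among 14791 with the replicate block.

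Leaving out each library in turn gave 0 to 2 members for any difference, 0 to 1 for T-bet + Plum versus GFP + Plum, T-bet + GATA3 versus GFP + GATA3 and T-bet + GATA3 versus GFP + Plum, 3 to 4 for the averaged T-bet effect and 0 to 0 elsewhere. A line left with 1 library was assumed to vary like the others. The member medians then ran from -0.18 to 0.18 (T-bet + Plum versus GFP + Plum), -0.077 to 0.32 (GFP + GATA3 versus GFP + Plum), -0.23 to 0.17 (T-bet + GATA3 versus GFP + GATA3), -0.067 to 0.12 (T-bet + GATA3 versus T-bet + Plum), -0.14 to 0.19 (T-bet + GATA3 versus GFP + Plum), -0.18 to 0.079 (averaged T-bet effect), -0.020 to 0.18 (averaged GATA3 effect) and -0.32 to 0.13 (interaction). The replicate block put the first at -0.041. The averaged GATA3 median was 0.031 with library size scaling, 0.077 with length offsets, 0.055 without a filter, 0.063 with at least 10 counts, 0.044 over protein-coding genes and 0.075 with the replicate block. Mean summed TPM for the control line, the T-bet line, the GATA3 line and the line with both factors was 23864, 21859, 26557 and 22116 over protein-coding transcripts, and summed CPM was 17006, 16925, 19327 and 17123. Single libraries gave sums of 10446 to 14252, 11640 to 12113, 12618 to 16148 and 11292 to 11625 TPM. DESeq2 called 6 members among 351 genes by replicate number.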

Other observations

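The number of the library, tested with line as a covariate, was added after the values per library had been seen. No member passed by edgeR's quasi-likelihood test (0.0135% of all genes did, namely Il2ra and Trib3). The smallest FDR among the members was 0.0803, and 14 of 29 members (48.3%) had an unadjusted p under 0.05, against 16.3% of all genes. DESeq2 called 6 members, Slc2a1, Hk2, Pfkl, Pgk1, Slc16a3 and Pdk1, among 351 genes. Bnip3, a mitophagy gene of the hypoxia list, was higher in the library numbered 1 by 2.60, 1.98, 2.84 and 1.19 on the log2 CPM scale in the control line, the T-bet line, the GATA3 line and the line with both factors. The libraries numbered 1 were the shallower of each line, by unequal amounts. In estimated counts they held 15385166 against 16003519 in GFP + Plum and 8038565 against 14878505 in T-bet + Plum. They held 10150310 against 15508697 in GFP + GATA3 and 9807867 against 15286368 in T-bet + GATA3. Whether the numbers mark shared harvests is not stated, and the parts of depth and harvest were not tested.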
